A study of Mus musculus with 3 samples.

Results

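Leukocyte integrins were read from the deposited values of sorted mouse spleen dendritic cells (DCs), which capture antigen and show it to T cells. Members were the probe sets annotated with exactly 1 gene symbol out of Itgam, Itgax, Itgad, Itgal, Itgb2, Itgb7, Itga4, Itgb1, Itgav and Itgb5. All 10 genes were found, with 11 probe sets, among 19938 genes with 21789 such probe sets. The study sorted 3 populations of CD11c(hi) CD11b+ cells and measured each on 1 array. The first population, Esam(lo) GFP(hi) cells, came from Cx3cr1-GFP+ RBPJflox/flox CD11c-Cre+ mice, and its array is called the array labelled RBPJ-null below. The second was the Esam(hi) GFP(lo) cells and the third the Esam(lo) GFP(hi) cells of Cx3cr1-GFP+ RBPJflox/flox littermates without Cre, so that every mouse carried the floxed Rbpj alleles and the Cx3cr1 reporter. Spleens of 2 to 3 mice were combined for each array. The labels give neither age nor sex of the mice. Cre was driven by regulatory sequence of CD11c, the product of Itgax, and both CD11c and CD11b, the product of Itgam, were gates of the sort. The protein levels of these 2 members were therefore restricted before RNA was taken.

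Integrins are cell surface receptors made of an alpha and a beta chain, and a chain reaches the surface only with a partner. They hold leukocytes to other cells and to matrix, and they switch from a resting to a ligand-binding shape when talin and kindlin bind the tail of the beta chain. In the beta2 family, Itgb2 pairs with Itgal (LFA-1), Itgam (Mac-1, complement receptor), Itgax or Itgad. The alpha4 chain pairs with Itgb1 to bind VCAM-1 and fibronectin, or with Itgb7 to bind the gut addressin MAdCAM-1. The alphaV chain pairs with several beta chains, among them Itgb5, which binds vitronectin.

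Each value is the log2 expression value that the authors deposited, and a difference of 1 on this scale is 2-fold. An array's background was set at the 95th percentile of the values of 1194 genes for olfactory and vomeronasal receptors, which are silent in most tissues. It lay at 6.87 on the array labelled RBPJ-null, 7.17 on the control Esam(hi) array and 6.76 on the control Esam(lo) array. Each group had 1 array, so replicate error is unknown, nothing was tested, and every difference compares single arrays, not conditions. Genes were counted as apart where 2 arrays differed by at least 2-fold and the brighter one was above its background. In sorted bulk samples, fewer cells of a type and less RNA per cell cannot be told apart. Esam read 6.12 on the array labelled RBPJ-null, 7.79 on the control Esam(hi) array and 6.57 on the control Esam(lo) array, and was above background on the control Esam(hi) array alone. Rbpj read 10.04 on the array labelled RBPJ-null, 9.85 on the control Esam(hi) array and 9.85 on the control Esam(lo) array. The array labelled RBPJ-null thus had the highest Rbpj value, and whether its probes lie in the deleted part is not known here, so the label could not be checked by it. Cx3cr1, Notch2 and Dtx1 were the other label checks. Of the 5 checks, 4 entered the comparison of the Esam(lo) arrays, with 2 higher values, 1 lower value and 1 tie on the array labelled RBPJ-null. None was 2-fold apart by the deposited values, and 1 was 2-fold lower there with the arrays centred on their medians. Centring moved this comparison by only -0.00363, so that check was already close to 2-fold lower by the deposited values. All 18 classical DC genes of the marker list were above background on every array.

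On the control Esam(hi) array 9 of the 10 integrin genes had lower deposited values than on the control Esam(lo) array. So did 36.4% of all 19938 genes, and 69.2% of the 9466 whose brighter array was above background. With the trend of differences on level removed, 6 of the 10 had lower values, beside 54.4% of all genes. With quantile normalization it was 7 of the 10, beside 51.3%. By the deposited values the array labelled RBPJ-null lay close to the control Esam(lo) array for most integrin genes. Itgad was the exception, being above background on the array labelled RBPJ-null alone. Itga4 and Itgax had nearly equal values on all 3 arrays. Among the 8 genes above background on every array, the range over the arrays was largest for Itgam (1.29) and Itgal (1.24), and smallest for Itgax (0.13) and Itga4 (0.0095). The deposited values of Itgb5 spanned 1.54 and those of Itgad 1.40, both including values below background, so these 2 have no place in that order.

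**Figure D1:**
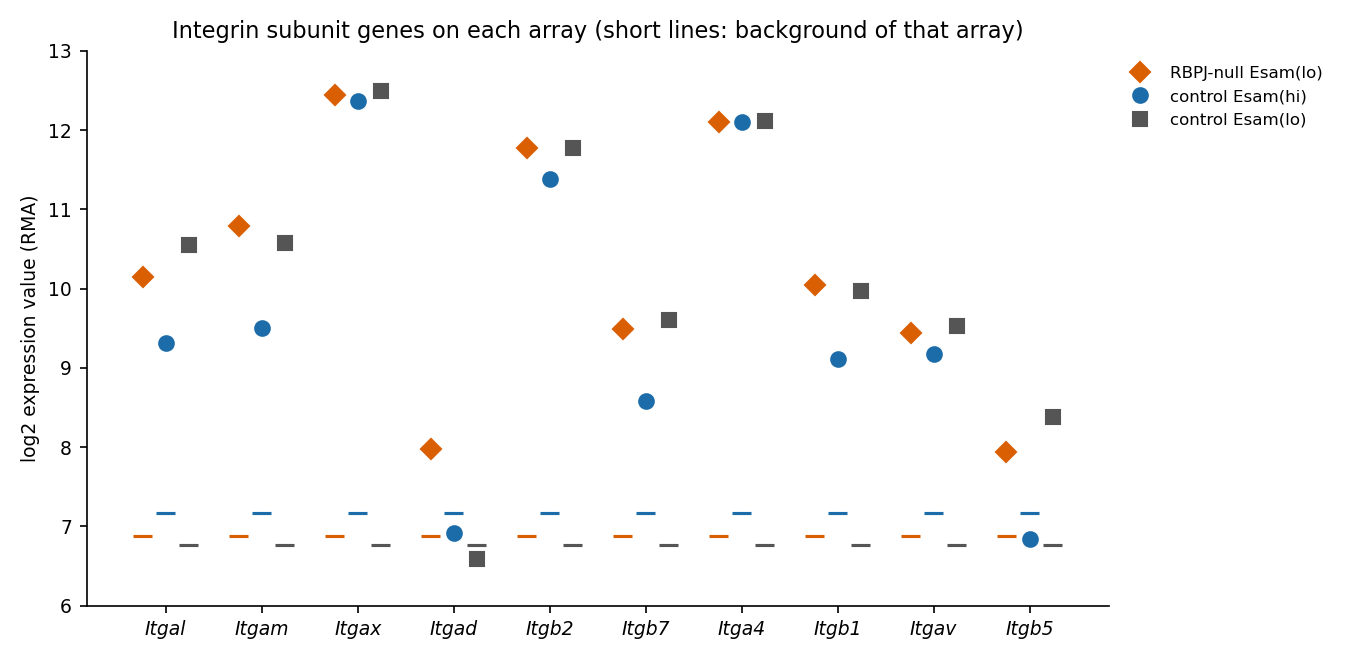
Log2 expression values of the 10 integrin genes on the array labelled RBPJ-null (diamonds), the control Esam(hi) array (circles) and the control Esam(lo) array (squares), with 1 array per group and the background of each array as a short line. Itgad lies above background on the array labelled RBPJ-null alone, Itgb5 lies below background on the control Esam(hi) array alone, and the other 8 genes lie above background on every array.

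The comparison of control Esam(hi) with control Esam(lo) cells asks how the CD11b+ DC subsets of a normal spleen differ. By the deposited values 4 of the 10 integrin genes, Itgal, Itgam, Itgb7 and Itgb5, were 2-fold or more lower in Esam(hi) cells, and none was higher by that much. Itgad, below background in both, did not enter the comparison. Of all 9466 genes whose brighter array was above background, 12.1% were 2-fold apart, 11.3% lower and 0.792% higher in Esam(hi) cells. Lower values as such were common, at 69.2% of those genes, against 36.4% of all 19938 genes. The median difference over the 10 integrin genes was -0.62, and it was 0 over all genes. Over the 9 integrin genes that entered the comparison it was -0.86, and over all genes above background it was -0.30. With the level trend removed these medians were -0.42 for the 9 integrin genes and -0.06 for all genes above background.

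Among the alpha chains of the beta2 family, Itgal, which binds the ICAM adhesion molecules and stabilises contact with T cells, read 9.31 in Esam(hi) and 10.55 in Esam(lo) cells, 2.37-fold lower. Itgam, the chain for uptake of complement-coated particles, read 9.50 in Esam(hi) and 10.57 in Esam(lo) cells, 2.11-fold lower. Both were well above background on each array. Itgax, the CD11c chain by which DCs are sorted, read 12.36 in Esam(hi) and 12.50 in Esam(lo) cells. Its difference of -0.13 turned to 0.20 once the trend of differences on level was removed, and to 0.13 with quantile normalization, so it has no settled direction. Itgb2, the beta chain shared by these alpha chains, read 11.38 in Esam(hi) and 11.77 in Esam(lo) cells, a difference of -0.39 that shrank to -0.02 with the level trend removed. Itgad, the CD11d chain, read 6.91 in Esam(hi) and 6.59 in Esam(lo) cells, below background on both, so no fold is given.

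Among the alpha4, beta7 and beta1 chains the pattern was uneven. Itgb7, the beta chain of the gut homing receptor, read 8.58 in Esam(hi) and 9.61 in Esam(lo) cells, 2.04-fold lower. Itgb1, which many alpha chains share, read 9.11 in Esam(hi) and 9.96 in Esam(lo) cells, a difference of -0.86 that falls short of 2-fold. Their partner Itga4 read 12.10 in Esam(hi) and 12.11 in Esam(lo) cells. Its difference was -0.0095, and it became 0.34 with the level trend removed and 0.24 with quantile normalization.

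Itgb5, the vitronectin-binding beta chain, read 6.84 in Esam(hi) cells, below background, and 8.38 in Esam(lo) cells, which makes it at least 2.32-fold lower. It was the single member undetected in Esam(hi) and detected in Esam(lo) cells. Its alpha partner Itgav, which serves several beta chains, read 9.18 in Esam(hi) and 9.53 in Esam(lo) cells. That difference of -0.36 became -0.02 with quantile normalization and 0.08 with the level trend removed.

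The deposited arrays differ in scale, and differences between the control arrays go with level. With the level trend removed, Itgb5 was the single member still counted as 2-fold lower in Esam(hi) cells, where it is below background, while Itgal (-0.81), Itgam (-0.65) and Itgb7 (-0.59) kept lower values short of 2-fold; 7.05% of genes were then 2-fold apart, 5.14% lower and 1.90% higher. Lists of monocyte, neutrophil and natural killer markers also had lower summed signals in Esam(hi) cells, while the list of B cell markers did not. Lower sums were not limited to these lists. That of CD8+ DC markers was 2055 in Esam(hi) and 4154 in Esam(lo) cells. For red pulp and marginal zone macrophage markers it was 2948 in Esam(hi) and 4866 in Esam(lo) cells. Plasmacytoid DC markers had 1447 in Esam(hi) and 1813 in Esam(lo) cells, and classical DC genes 83129 in Esam(hi) and 87280 in Esam(lo) cells. These are sums of deposited values, whose scale differs between arrays. Of 17 monocyte genes on the array, 9 were above background in Esam(hi) and 16 in Esam(lo) cells, and their summed signal on the linear scale was 14172 in Esam(hi) and 34260 in Esam(lo) cells. This list includes Cx3cr1, whose GFP reporter was a gate of the sort, so the sort itself selected on that gene. The 14 neutrophil genes had summed signals of 9613 in Esam(hi) and 20855 in Esam(lo) cells, with 10 of them above background in Esam(hi) and 13 in Esam(lo) cells. Of the 13 neutrophil genes that entered the comparison, 10 had lower and 3 had higher values in Esam(hi) cells. By the deposited values 7 were 2-fold lower there. With the level trend removed 4 were 2-fold lower and 1 was 2-fold higher. The monocyte genes Ccr2, F13a1, Fcgr4 and Adgre4 were below background on the Esam(hi) array. Of 10 natural killer genes, 3 were above background in Esam(hi) and 4 in Esam(lo) cells, with summed signals of 1699 in Esam(hi) and 2864 in Esam(lo) cells; 2 of them, Klrk1 and Klrd1, were 2-fold lower in Esam(hi) cells, while Ncr1 and Klrb1c were below background on every array. The summed signal of 9 B cell genes was 2106 in Esam(hi) and 2013 in Esam(lo) cells, with 3 above background in Esam(hi) and 2 in Esam(lo) cells. That of 8 T cell genes was 1608 in Esam(hi) and 1707 in Esam(lo) cells, with 3 above background in Esam(hi) and 4 in Esam(lo) cells. Cd79a, Ms4a1 and Cd3d, which define B and T cells, were below background on every array. The part of these cells in the integrin differences was not tested.

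**Figure D2:**
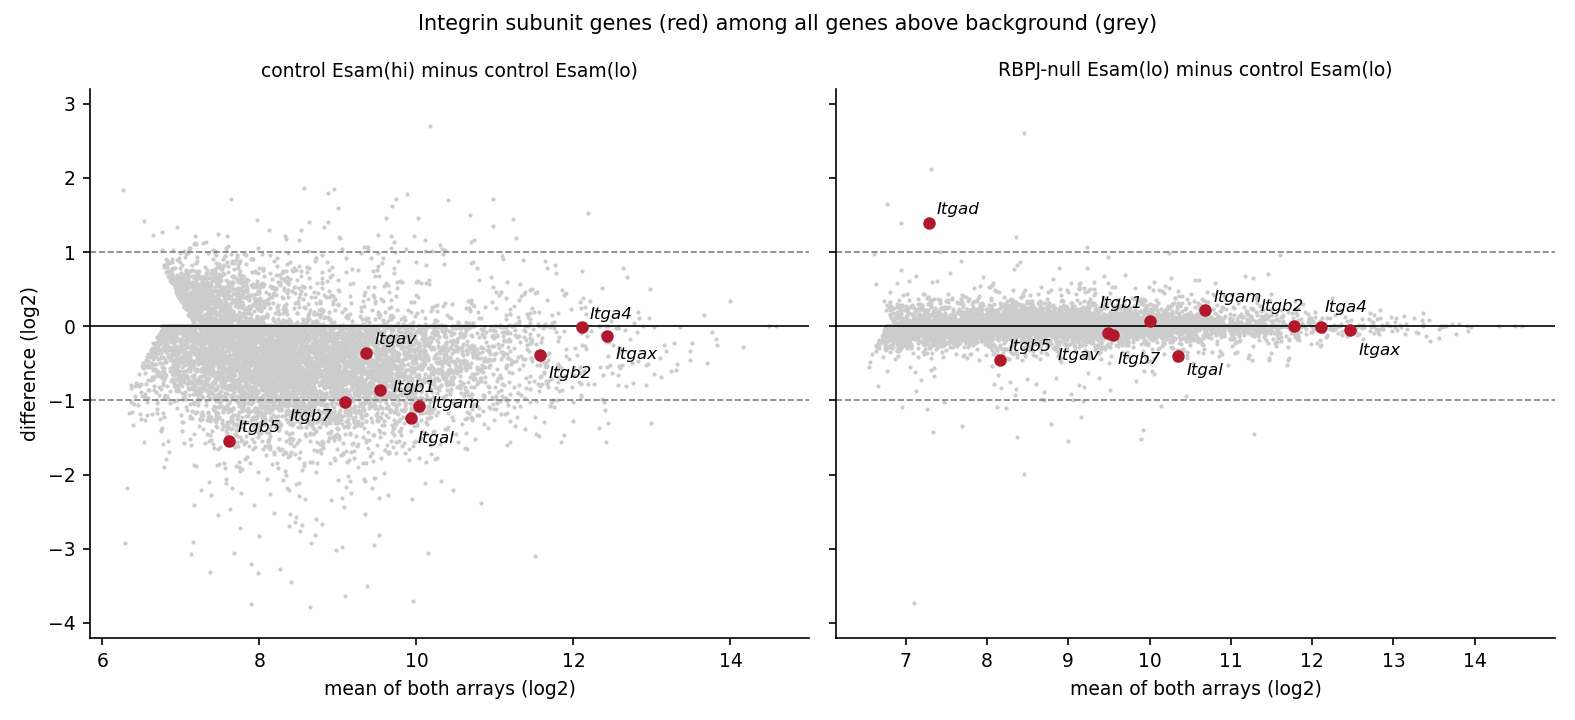
Difference between 2 arrays (log2, vertical axis) against the mean of both (log2, horizontal axis) for genes whose brighter array was above background (grey dots), with the integrin genes in red and 2-fold lines dashed. Between the controls (left) Itgb5, Itgal, Itgam and Itgb7 lie below the lower line; between the Esam(lo) arrays (right) Itgad lies above the upper line and the other 9 integrin genes lie between the lines.

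Promoter sequence is shown for 2 genes that were 2-fold lower on the control Esam(hi) array, Itgam and Itgb5, and for 2 with nearly equal or unsettled values, Itgax and Itga4, because RBPJ is a DNA-binding protein. RefSeq promoter windows of build GRCm38.p6 were found for 7 of the 10 genes, and the 250 bases before the annotated start are printed 5′ to 3′. The windows are chr7:128062390-128062639 for Itgam, chr16:33829415-33829664 for Itgb5, chr7:128129300-128129549 for Itgax and chr2:79255176-79255425 for Itga4, all on the plus strand. Capitals mark matches, on either strand, to the motifs TGGGAA (RBPJ), GAGGAAG (PU.1), TGTGGT (RUNX), GGGCGG (SP/KLF) and TTGCNNAA (C/EBP) and to the composite PU.1-IRF motif, none of which overlapped another here.
Itgam: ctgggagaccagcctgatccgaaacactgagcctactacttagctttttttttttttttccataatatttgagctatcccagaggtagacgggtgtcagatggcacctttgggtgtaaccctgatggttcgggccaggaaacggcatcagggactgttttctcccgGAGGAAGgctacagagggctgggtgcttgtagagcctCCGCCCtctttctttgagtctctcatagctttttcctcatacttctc
Itgb5: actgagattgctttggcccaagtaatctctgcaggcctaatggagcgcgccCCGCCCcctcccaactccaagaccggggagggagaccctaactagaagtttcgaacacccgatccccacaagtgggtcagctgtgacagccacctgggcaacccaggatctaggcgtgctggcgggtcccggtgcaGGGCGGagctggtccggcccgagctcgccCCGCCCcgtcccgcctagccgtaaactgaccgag
Itgax: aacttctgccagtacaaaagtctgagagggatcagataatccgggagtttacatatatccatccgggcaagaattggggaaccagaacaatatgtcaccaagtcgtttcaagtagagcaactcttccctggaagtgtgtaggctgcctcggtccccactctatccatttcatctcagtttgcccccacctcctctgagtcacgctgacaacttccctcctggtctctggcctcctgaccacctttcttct
Itga4: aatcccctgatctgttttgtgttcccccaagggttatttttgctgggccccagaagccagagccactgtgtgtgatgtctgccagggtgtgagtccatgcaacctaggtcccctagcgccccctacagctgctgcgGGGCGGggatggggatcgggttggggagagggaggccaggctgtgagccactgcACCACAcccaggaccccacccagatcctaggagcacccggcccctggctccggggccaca

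Itgam held 1 PU.1 match, 84 to 78 bases before the start, and 1 SP/KLF match on the minus strand. Itgb5 held 3 SP/KLF matches and no other. Itga4 held 1 SP/KLF and 1 RUNX match, and Itgax held no match to any of the 6 motifs. The RBPJ letters were in none of the 7 integrin windows; they were in 21.6% of the 32851 promoter windows of the same length. The PU.1 letters were in 10.6% of all windows, RUNX in 14.0%, SP/KLF in 32.7%, PU.1-IRF in 2.30% and C/EBP in 9.56%. Of the windows not printed, Itgav held 1 PU.1 match, Itgb1 held 1 SP/KLF match and Itgb7 held none. Such matches describe letters in these windows, and a window without them says nothing about binding elsewhere.

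The comparison of the array labelled RBPJ-null with control Esam(lo) cells sets side by side cells of the same surface phenotype. They came from mice with and without Cre, so Cre and the deletion cannot be told apart. A single integrin gene was apart here, Itgad, which was higher on the array labelled RBPJ-null; 0.262% of 9541 genes were 2-fold apart, 0.0734% higher and 0.189% lower. Itgad encodes CD11d, a beta2 family chain found in mouse on macrophages of the splenic red pulp. Its probe set 10557928 read 7.98 on the array labelled RBPJ-null, 6.91 on the control Esam(hi) array and 6.59 on the control Esam(lo) array, and both control values were below background. The gene was thus at least 2.33-fold higher on the array labelled RBPJ-null than on the control Esam(lo) array.

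The other Itgad probe set, 10557925, read 6.53 on all 3 arrays, below background on each, and with the mean of both probe sets the difference was 0.70, short of 2-fold. In the gene table of GRCm38.p6 Itgad, on chromosome 7 beside Itgam and Itgax, overlaps the lncRNA genes Gm39091 and 4931431B13Rik and Cox6a2, a subunit gene of respiratory complex IV, so its signal is uncertain to that extent. Cox6a2 read 8.72 on the array labelled RBPJ-null, 8.60 on the control Esam(hi) array and 7.95 on the control Esam(lo) array. It is also a marker of plasmacytoid DCs, whose defining gene Siglech was below background on every array; 4 of the 7 plasmacytoid DC genes were above background on each array. Of 16 red pulp and marginal zone macrophage genes, 9 were above background on the array labelled RBPJ-null and 9 on the control Esam(lo) array. Their summed linear signal was 4670 on the array labelled RBPJ-null and 4866 on the control Esam(lo) array, and none was 2-fold apart. The 9 above background on both Esam(lo) arrays were Spic, Vcam1, Adgre1, Hmox1, C1qa, C1qb, C1qc, Axl and Hpgd. The others of this list, Cd163, Mertk, Siglec1, Marco, Cd5l, Slc40a1 and Cd209b, were below background on every array. The part of such macrophages in the Itgad value was not tested. With the level trend removed the background of calls was the same, 0.262%, and Itgad was again the single member counted.

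The 9 other integrin genes differed between these arrays by -0.45 to 0.22. Itgb5 read 7.93 on the array labelled RBPJ-null and 8.38 on the control Esam(lo) array (-0.45), and Itgal read 10.15 on the array labelled RBPJ-null and 10.55 on the control Esam(lo) array (-0.41). These differences are short of 1.5-fold, although 1.58% of genes had a larger difference in size than Itgb5 and 2.06% a larger one than Itgal. Itgam read 10.79 on the array labelled RBPJ-null and 10.57 on the control Esam(lo) array, a difference of 0.22. Neutrophils carry Itgam too, and 11 of 13 neutrophil genes also had higher values on the array labelled RBPJ-null (median 0.14). Of the 9541 genes, 28.7% had higher values there and 41.4% were tied. The neutrophil genes had a summed linear signal of 22682 on the array labelled RBPJ-null and 20855 on the control Esam(lo) array. Of 16 monocyte genes above background, 5 had higher values on the array labelled RBPJ-null, 7 had lower values and 4 were tied (median 0). Of 9 red pulp and marginal zone macrophage genes above background, 2 had higher values on that array, 4 had lower values and 3 were tied (median 0). Of 4 plasmacytoid DC genes above background, 3 had higher values on the array labelled RBPJ-null (median 0.15), among them Cox6a2, which overlaps Itgad. The part of neutrophils, monocytes or macrophages in the Itgam value was not tested. The remaining 6, Itgb7 (-0.11), Itgav (-0.09), Itgax (-0.05), Itga4 (-0.0095), Itgb2 (0.0042) and Itgb1 (0.08), lay still closer together, and the sign for Itgb2 turned with quantile normalization. The median over the 10 integrin genes was -0.03, and it was 0 over all genes, of which 52.0% had exactly equal values on both arrays.

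The array labelled RBPJ-null was also set against control Esam(hi) cells. It shares an array with each comparison above. By the deposited values 3 of the 10 integrin genes, Itgam, Itgad and Itgb5, were 2-fold higher on the array labelled RBPJ-null, where 14.1% of 9312 genes were 2-fold apart, 12.9% higher and 1.18% lower. Itgam read 10.79 on the array labelled RBPJ-null and 9.50 on the control Esam(hi) array, 2.45-fold higher. Itgb5 read 7.93 on the array labelled RBPJ-null and 6.84 on the control Esam(hi) array. Since the control values of Itgb5 and Itgad were below background, the folds are bounded only as at least 1.70 for Itgb5 and at least 1.76 for Itgad. With the level trend removed Itgam fell short of 2-fold (0.86). By value Itgb5 and Itgad were then still counted as 2-fold higher, but against control values below background, so that their bounds do not reach 2-fold. Of all genes 8.48% were then counted as 2-fold apart, 6.09% higher and 2.39% lower. The summed linear signal of the monocyte genes was 34471 on the array labelled RBPJ-null and 14172 on the control Esam(hi) array, and that of the neutrophil genes 22682 on the array labelled RBPJ-null and 9613 on the control Esam(hi) array. The CD8+ DC markers likewise had 4091 on the array labelled RBPJ-null and 2055 on the control Esam(hi) array. The part of any of these cells in these differences was not tested. The monocyte list again includes Cx3cr1, whose reporter was a gate of the sort.

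Below 2-fold, Itgb1 was 1.91-fold higher (10.04 on the array labelled RBPJ-null and 9.11 on the control Esam(hi) array), Itgb7 1.88-fold (9.50 on the array labelled RBPJ-null and 8.58 on the control Esam(hi) array) and Itgal 1.79-fold (10.15 on the array labelled RBPJ-null and 9.31 on the control Esam(hi) array). Itgb2 differed by 0.39, Itgav by 0.27 and Itgax by 0.08. With the level trend removed Itgav (-0.19), Itgax (-0.25) and Itga4 (-0.34) had lower values on the array labelled RBPJ-null. Itga4 had exactly equal deposited values on both arrays, which in such data does not show that it was unchanged.

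**Figure D3:**
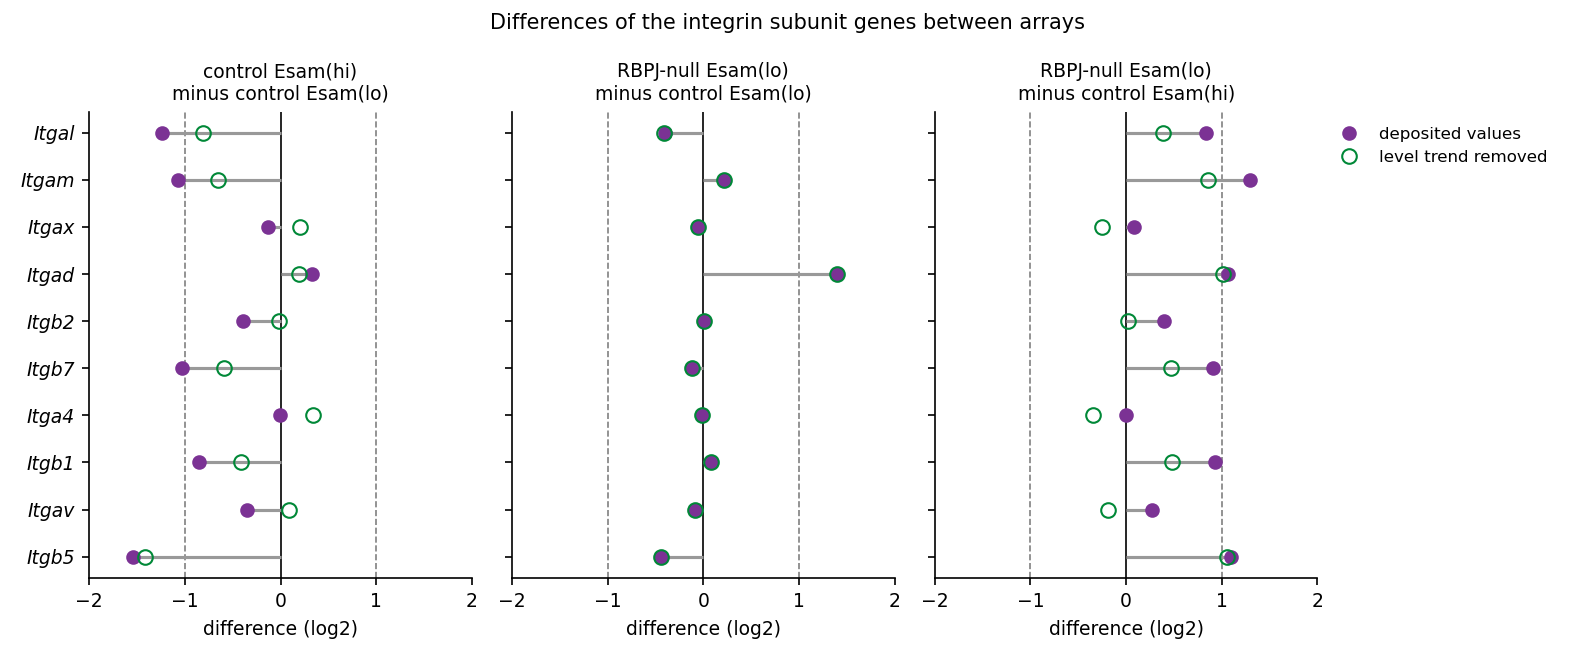
Differences (log2, horizontal axis) of each integrin gene for the 3 pairs of arrays, on the deposited values (filled) and with the trend of differences on level removed (open), with 2-fold lines dashed. Between the Esam(lo) arrays both settings coincide, while against the control Esam(hi) array the open points of Itgal, Itgam, Itgb7 and Itgb1 lie nearer to 0 and those of Itgax and Itgav lie on the other side of it. The open points of Itga4 lie farther from 0 than its filled points there.

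Chains that form a receptor together differed unequally between the control arrays. The Itga4 difference exceeded that of Itgb7 by 1.02 (0.93 with the level trend removed) and that of Itgb1 by 0.85 (0.75). The Itgav difference exceeded that of Itgb1 by 0.50; against Itgb5, below background in Esam(hi) cells, no such value is given. Within the beta2 family, the difference relative to that of Itgb2 was -0.85 for Itgal (-0.79 with the level trend removed), -0.69 for Itgam (-0.63) and 0.26 for Itgax (0.22). Thus the beta chains Itgb7 and Itgb1 had lower values relative to Itga4 on the Esam(hi) array, and the alpha chains Itgal and Itgam had lower values relative to their beta partner. Between the Esam(lo) arrays the difference relative to Itgb2 was -0.41 for Itgal and 0.21 for Itgam.

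The genes most alike in pattern were sought for Itgb5 and Itgad, the integrin genes with the widest range of deposited values over the 3 arrays, those below background included, by the distance between values centred on each gene's mean, among 9138 protein-coding genes above background. Nearest to Itgb5 were Tgfbi, a matrix protein that integrins bind (distance 0.0551), Plaur, the urokinase receptor (0.0702), Myd88, the adaptor of Toll-like receptors (0.0738), Smpdl3b (0.0794) and the tetraspanin gene Cd81 (0.0933). Tgfbi read 11.43 on the array labelled RBPJ-null, 10.35 on the control Esam(hi) array and 11.95 on the control Esam(lo) array. Smpdl3b, like Itgb5, was below background on the control Esam(hi) array. Nearest to Itgad were the growth factor gene Bmp2 (0.193), Zc3h12c (0.299), the adhesion receptor gene Adgrg6 (0.434), the basement membrane gene Nid1 (0.470) and Wnt11 (0.483). Bmp2 read 7.59 on the array labelled RBPJ-null, 6.29 on the control Esam(hi) array and 5.94 on the control Esam(lo) array. Both control values of Bmp2 and of Nid1 were below background, as were those of Itgad. Each likeness rests on 3 values per gene, so these names are a description.

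Other genes of the integrin pathway were read from lists. Of the 16 other integrin subunit genes, 3 were above background in the control comparison, and Itga5, the alpha chain of the fibronectin receptor, was the single one 2-fold apart. Itga5 read 8.62 on the array labelled RBPJ-null, 7.15 on the control Esam(hi) array (below background) and 8.71 on the control Esam(lo) array, which is lower in Esam(hi) than in Esam(lo) cells by at least 2.92-fold. Itgb3 read 8.53 on the array labelled RBPJ-null, 7.97 on the control Esam(hi) array and 8.53 on the control Esam(lo) array. Itgae, the CD103 chain that pairs with Itgb7, was below background on every array.

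Among the 20 genes of integrin activation, 16 were above background in the control comparison, and 1 was 2-fold lower in Esam(hi) cells. This was Rasgrp2, the exchange factor that loads Rap1, with 7.77 in Esam(hi) and 8.95 in Esam(lo) cells (2.27-fold). The talin gene Tln1 differed by -0.36 and the kindlin gene Fermt3 by -0.57. With the level trend removed Rasgrp2 fell short of 2-fold. The list's median of -0.35 lay near that of all genes (-0.30). Against the control Esam(hi) array, Rasgrp2 (2.38-fold) and Cyth1, a guanine exchange factor that regulates beta2 integrins (2.30-fold), were higher on the array labelled RBPJ-null.

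Of 24 signalling and adhesion plaque genes on the array, 20 were above background in the control comparison; 1 was 2-fold higher and 2 were 2-fold lower on the Esam(hi) array. Actn1, the alpha-actinin that crosslinks actin at adhesion sites, read 10.28 in Esam(hi) and 9.06 in Esam(lo) cells (2.33-fold higher), and it had 1.66 as its difference with the level trend removed. Vcl, the plaque protein vinculin, read 7.40 in Esam(hi) and 8.68 in Esam(lo) cells (2.42-fold lower). Zyx, encoding zyxin, was 2.25-fold lower, and short of 2-fold with the level trend removed. Against the control Esam(hi) array, Vcl was 2.58-fold higher on the array labelled RBPJ-null, Actn1 2.19-fold lower and Wdfy4, needed in mouse DCs for cross-presentation, 2.16-fold lower.

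Of 19 ligand genes on the array 8 were above background in the control comparison and 3 were 2-fold lower on the Esam(hi) array: Fn1 (fibronectin, 11.3-fold), Thbs1 (thrombospondin, 7.05-fold) and Tgfb1 (2.14-fold), whose latent form integrins of the alphaV group activate. Tgfb1 read 10.39 in Esam(hi) and 11.49 in Esam(lo) cells. Tgfb1 fell short of 2-fold with the level trend removed. Among the ligands of LFA-1, Icam1 differed by -0.27 and F11r by -0.82. Of the ligands of the alpha4 integrin with Itgb1, Vcam1 differed by -0.01 and Fn1 by -3.50. Of 11 lateral partner genes, 10 were above background and 4 were 2-fold lower on the Esam(hi) array, Cd14 (at least 3.48-fold), Cd81 (2.77-fold), Plaur (2.74-fold) and Cd37 (2.23-fold), of which Cd37 fell short of 2-fold with the level trend removed. Fn1 and Cd14 are on the monocyte list as well. All 4 partner genes were 2-fold higher on the array labelled RBPJ-null than on the control Esam(hi) array, as was Cd47 (2.07-fold), but with the level trend removed Cd14 alone was. Between the control arrays the median difference was -0.56 for the other subunits, of which only 3 genes entered, and -0.47 for signalling and plaque genes. It was -0.70 for ligands and -0.71 for partners, beside -0.30 over all genes above background. With the level trend removed the medians were -0.24 for the other subunits, -0.57 for ligands and -0.34 for partners. That of signalling and plaque genes was then -0.05, near the -0.06 of all genes above background. Between the Esam(lo) arrays no gene of these 5 lists was 2-fold apart, and their medians lay between -0.05 and 0.

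**Figure D4:**
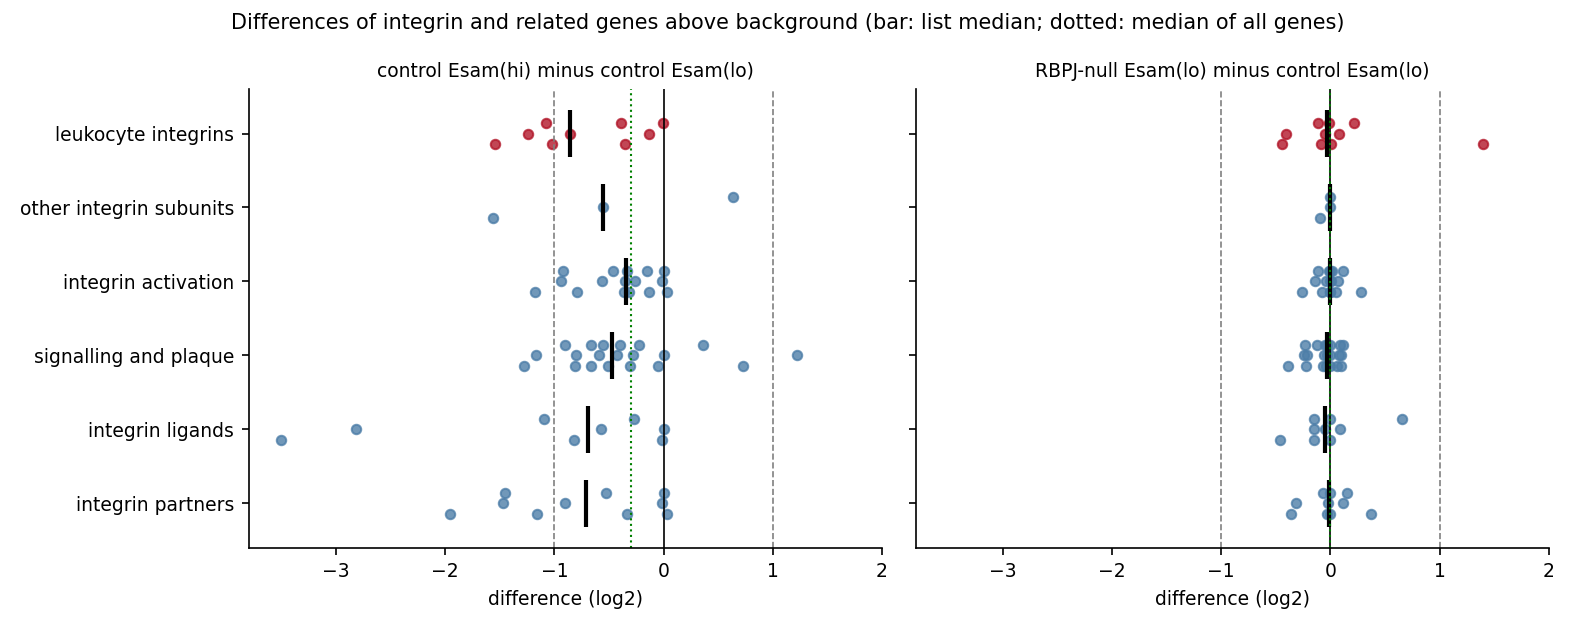
Differences (log2, horizontal axis) of the leukocyte integrins and of 5 lists of related genes, for members whose brighter array was above background (points), with each list's median (black bar), the median of all such genes (dotted) and 2-fold lines (dashed). Between the control arrays (left) the list medians run from -0.86 for the leukocyte integrins to -0.35 for integrin activation, and between the Esam(lo) arrays (right) Itgad is the single point past 2-fold.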

How the data were processed

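RNA of 3 sorted spleen DC populations was labelled with biotin after whole-transcript amplification and hybridised to Affymetrix Mouse Gene 1.0 ST arrays, per the labels' protocols. The authors deposited a log2 value for every probe set on each array, made with RMA and Affymetrix Expression Console per the submitters' processing notes. Tool versions are not stated there, nor which arrays were normalized together. RMA condenses probes by median polish, which over few arrays can give exact ties.

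Of 35556 probe sets, 21789 name 1 gene, 1621 several and 12146 none; 3 that name both Rpl35 and Itgam were not used. A gene with several probe sets was represented by the brightest. Gene names and neighbours came from a GRCm38.p6 gene table, which held all 10 member symbols. No build is stated for the array's annotation.

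A gene entered a comparison where the brighter array was above background, or either array on a tie. Folds against an array below background are lower bounds against that background. The level trend was a lowess fit (fraction 0.3, statsmodels 0.14.6) and figures used matplotlib 3.10.9. The code for the calls was run on simulated data with an assumed noise. Since the noise of the real arrays is unknown, that run does not show how reliable the calls are. Alternatives were the filter on dim genes, centring, quantile normalization, the level trend, thresholds of 1.5-fold and 3-fold, and the mean of probe sets. Named genes were the 10 members, genes of the lists that were 2-fold apart (otherwise up to 4 with the largest differences), the label checks, and the 5 most alike genes of the 2 widest members; Tln1, Fermt3, Icam1, F11r, Vcam1, Itgb3, Itgae, Cox6a2 and the marker genes named beside results were added after their values were seen. The members and lists were chosen with earlier results of these data known. No test, standard deviation or p-value was computed, since each group has 1 array, and precision is limited by that number.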

Additional observations from a re-analysis of the deposited data

How the results depend on the processing

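No paired analysis was possible because each group has 1 array. Between the control arrays, the count of 4 integrin genes 2-fold apart (12.1% of all genes entered) became 1 with quantile normalization (8.42%) and 1 with the level trend removed (7.05%), in both cases Itgb5, and 0 at 3-fold (2.20%). Between the array labelled RBPJ-null and the control Esam(lo) array, the count of 1 (Itgad, beside 0.262% of genes) became 0 with a filter at the array's 75th percentile (0.314%), a 3-fold threshold (0.0524%) and the mean of probe sets (0.252%). Between the array labelled RBPJ-null and the control Esam(hi) array, the count of 3 (14.1%) became 1 with the 75th percentile filter (19.7%), 5 with arrays centred on their medians (17.6%), 6 at 1.5-fold (38.0%) and 0 at 3-fold (2.97%). The other settings kept each count within 1.5 times. Centring moved the median difference of all genes from 0 to -0.11 between the control arrays and to 0.11 between the array labelled RBPJ-null and the control Esam(hi) array. No member that was 2-fold apart changed sign under any of the 4 settings run per gene. Causes of these shifts were not tested, beyond what each setting removes. Itgad and Itgb5 lie nearest to background, at most 1.62 above it on any array.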

Other observations

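The 3 probe sets annotated to both Rpl35 and Itgam did not follow the Itgam probe set. They read 12.03 to 12.36 on the array labelled RBPJ-null, 11.59 to 11.94 on the control Esam(hi) array and 12.03 to 12.36 on the control Esam(lo) array, with control differences of -0.44 to -0.42, where the Itgam probe set had -1.08. Between the Esam(lo) arrays they differed by at most -0.0022, where the Itgam probe set differed by 0.22.

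Of the other integrin subunits, Itga1, Itga2, Itga3, Itga6, Itga7, Itga8, Itga9, Itga11, Itgae, Itgb4, Itgb6 and Itgb8 were below background on all 3 arrays. Itga10 lay at background, with 6.87 on the array labelled RBPJ-null, 7.05 on the control Esam(hi) array and 6.87 on the control Esam(lo) array. Itga2b, the platelet chain, was above background on the control Esam(hi) array alone, with 6.72 on the array labelled RBPJ-null, 7.22 on the control Esam(hi) array and 6.59 on the control Esam(lo) array.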
